A study of Homo sapiens with 8 samples.

Results

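The genes described here are the coding histone genes of the HIST clusters, chosen by their symbols (HIST1 to HIST4 followed by the histone type). Of 70 such coding genes in the deposited counts, 46 are called members here, because their coding sequence (CDS) drew 10 or more ribo-seq reads over the 4 ribo-seq libraries. They are 4 of 6 H1 genes, 13 of 17 H2A genes, 13 of 18 H2B genes, 8 of 14 H3 genes and 8 of 15 H4 genes, among 19964 coding genes in all. Of the members, 38 belong to HIST1, 5 to HIST2, 2 to HIST3 and 1 to HIST4. Ribo-seq reads mRNA fragments protected by ribosomes (footprints), and mRNA-seq reads randomly fragmented mRNA of the same lysates. HEK293T, an established human line derived from embryonic kidney and carrying the SV40 large T antigen, received 40 µM sodium arsenite, which causes oxidative stress, or vehicle for 30 min. With 2 replicates of each treatment and 2 assays there were 8 libraries.

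Histones package DNA into nucleosomes: H2A, H2B, H3 and H4 form the core, and the linker histone H1 binds where DNA enters and leaves it. Most HIST cluster genes are replication-dependent, that is, their mRNAs accumulate in S phase when new chromatin needs histones. Their mature mRNAs normally end in a conserved stem-loop bound by SLBP instead of a poly(A) tail, while variant histone genes outside the clusters, such as H2AFZ, make polyadenylated mRNAs throughout the cell cycle. The mRNA-seq libraries were made from RNA selected for poly(A) in 2 rounds, and the ribo-seq libraries were made from footprints without that selection. An mRNA-seq level of a member is therefore a level of its poly(A)-selected RNA.

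The libraries differed in depth. For ribo-seq the depth was 1900510 reads in replicate 1 and 7268542 in replicate 2 of control, with 1023774 and 3042377 for arsenite, and for mRNA-seq it ranged from 3988153 to 21690319. The HEK293T markers VIM, NEFM and KRT18 had 14002, 1501 and 1114 CDS footprints over the 4 ribo-seq libraries. The other markers of that list, NEFL, KRT8 and PAX2, had 778, 277 and 31. PTPRC, ALB, COL1A2 and CDH5, markers of blood cells, hepatocytes, fibroblasts and endothelium, had 0, PECAM1 had 1 and COL1A1 had 416.

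The members share sequence features that the choice by symbol did not use. RefSeq promoter windows of GRCh38.p14, from 250 bases before to 50 bases after the start, were matched to 42 of 46 members by transcript accession. TATAAA on the gene's strand, starting 40 to 20 bases before the start, was found in 23 of these 42 windows (54.8%) and in 2.55% of 27305 windows of all genes. CCAAT on either strand was found in 37 of 42 windows (88.1%) against 35.7% of all, in every H1, H2A, H2B and H3 window matched but in 1 of 6 H4 windows. A match describes the letters of these windows only. For each histone type the window around TATAAA, in capitals, is shown for the member with the most footprints among those that hold it, so that the shared position can be seen.
HIST1H1E (chr6:26156288-26156317, plus strand, 29 bases before the start): agctccgccctaTATAAAcgggcgggcgca
HIST1H2AG (chr6:27133000-27133029, plus strand, 31 bases before the start): cccaatagtgttTATAAAaagcgccgcctt
HIST1H2BK (chr6:27146868-27146897, minus strand, 27 bases before the start): tgagaggtcctaTATAAAaacgactcctgg
HIST1H3B (chr6:26032114-26032143, minus strand, 32 bases before the start): gtggtctgactcTATAAAagaagagtagct
HIST1H4B (chr6:26027297-26027326, minus strand, 31 bases before the start): ccgatgttcgtgTATAAAtgctcgtggctt

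Histone genes held a sizeable share of all CDS footprints in these cells, while the same genes were nearly absent from mRNA-seq. In control, the members held 1.28% and 2.29% of all CDS footprints (replicates 1 and 2) but 0.0342% and 0.00989% of mRNA-seq CDS reads. The share of footprints was thus 37.5 times the share of mRNA-seq reads in replicate 1 and 231 times in replicate 2. In arsenite it was 23.2 and 237 times. Every ribo-seq library had a higher share than every mRNA-seq library, for each of the 5 types as well as in sum. The 12 variant histone genes outside the clusters held 0.0783% and 0.196% of CDS footprints and 0.118% and 0.146% of mRNA-seq CDS reads in control, which is 0.662 and 1.34 times.

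**Figure D1:**
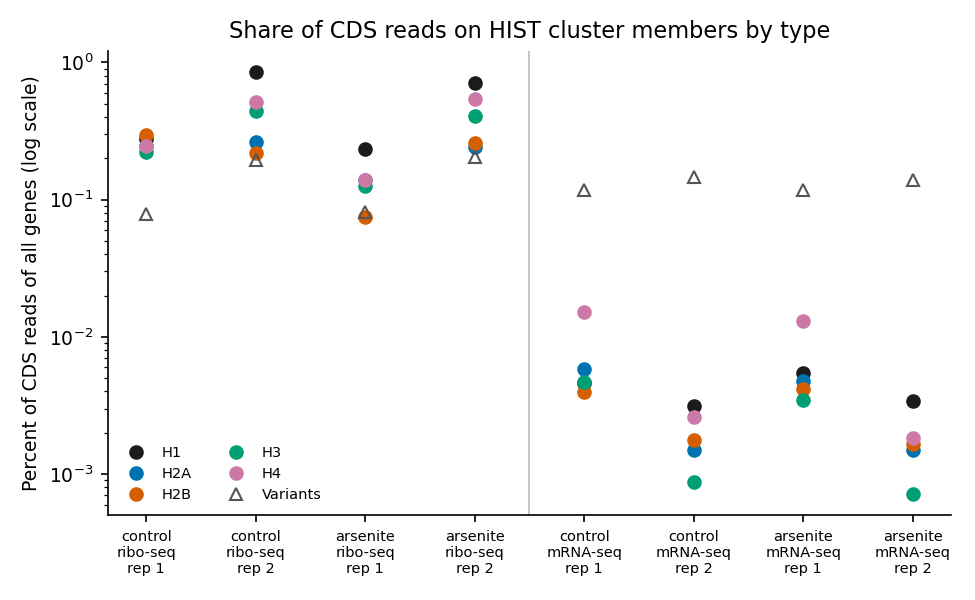
Share of CDS reads of all genes that fell on members of each histone type (filled circles) and on 12 variant histone genes (open triangles), in percent on a log scale, for each of the 8 libraries (rep, replicate). Circles lie higher in the ribo-seq libraries than in the mRNA-seq libraries for each type, while the triangles stay between 0.0783% and 0.204% in all 8.

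Over the 4 libraries of each kind the members had 260488 CDS footprints and 4094 mRNA-seq CDS reads. The footprints of a member ranged from 10 to 44803 with a median of 2897, and its mRNA-seq CDS reads reached 757 at most, with a median of 30. Footprints were concentrated on few genes, with 32.5% on HIST1H1E and HIST1H1C and 70.4% on the 10 members with the most. Among all 70 coding genes, 55 had more CDS footprints than mRNA-seq CDS reads, 1 had fewer, 1 had equal numbers and 13 had none of either. These are raw counts, not scaled for depth, and the same share over all coding genes was not computed. Of the 24 genes that are not members, none had more than 6 footprints or more than 2 mRNA-seq CDS reads. The methods discard reads that map to more than 1 gene, and the near-identical pairs HIST2H2AA3 and HIST2H2AA4, HIST2H3A and HIST2H3C, and HIST2H4A and HIST2H4B had 0 reads in all 8 libraries. Values of other members with close copies rest likewise on the reads that tell the copies apart and are uncertain to that extent.

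To compare footprints with mRNA-seq gene by gene, CDS counts of both assays entered the quasi-likelihood test of edgeR (TMM scaling, Benjamini-Hochberg adjustment, threshold 0.05). Both counts cover the same region, so CDS length cancels, and a log2 value of 0 is the level of the bulk of genes. In control, 42 members were tested and 42 were higher in ribo-seq, where 10.6% of the 11401 genes tested were called higher. Their median log2 value was 7.02, a 130-fold excess, against -0.014 over all genes tested. With the 1 member that had no mRNA-seq CDS read in control set at the bound that 3 reads over both libraries give, the median was 6.98. A member could pass the filter on low counts through its footprints alone, so the test was repeated where the mRNA-seq CDS reads alone averaged 10 or more. Then 21 members remained testable and 21 were higher, with a median of 6.83 and 11.1% of 11742 genes called higher. Ordered by this value under that filter, members took the first 21 places. The highest gene after them was EPPK1 (log2 4.17), which encodes the cytoskeletal linker epiplakin, and the lowest member, HIST1H4A, stood at 5.17. Poly(A) selection applies to mRNA-seq only, and its part in these values was not tested.

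**Figure D2:**
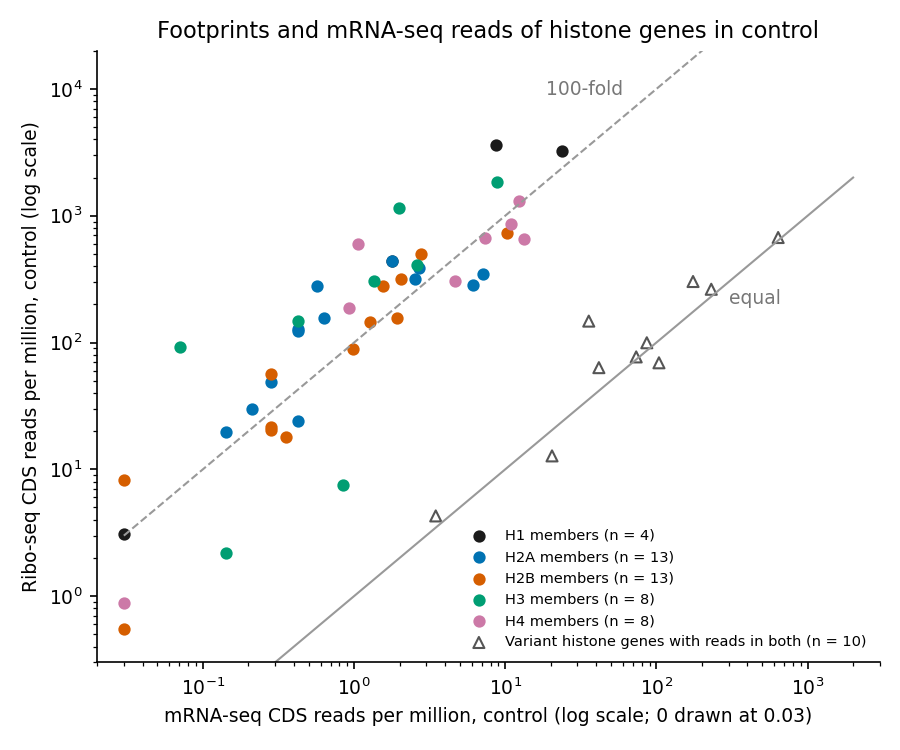
Ribo-seq against mRNA-seq CDS reads per 1000000 CDS reads of the library in control, both replicates added, on log scales, for the 46 members by type (filled circles) and 10 variant histone genes with reads in both assays (open triangles). The 4 members without an mRNA-seq CDS read in control are drawn at 0.03. The solid line marks equal values and the dashed line a 100-fold excess. Members lie around the dashed line and variant histone genes around the solid line.

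The size of this excess differed between replicates. The median over members was 5.51 in replicate 1 and 8.07 in replicate 2 (45.5-fold and 268-fold), and the value was lower in replicate 1 in 40 of 42 members, the exceptions being HIST1H2BK and HIST1H3E. In each replicate all 42 members lay above the 99th percentile of the other genes (2.22 and 1.79). Of these 42, 21 averaged 10 or more mRNA-seq CDS reads. The others passed the filter through their footprints, so their position is not independent of the filter. Positions within a replicate were not computed under the filter on mRNA-seq reads. The mRNA-seq share went the opposite way to the excess and was higher in replicate 1 in each treatment, while the footprint share was higher in replicate 2. The replicates had different adapters and sequencing, and the part of these in the difference was not tested.

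**Figure D3:**
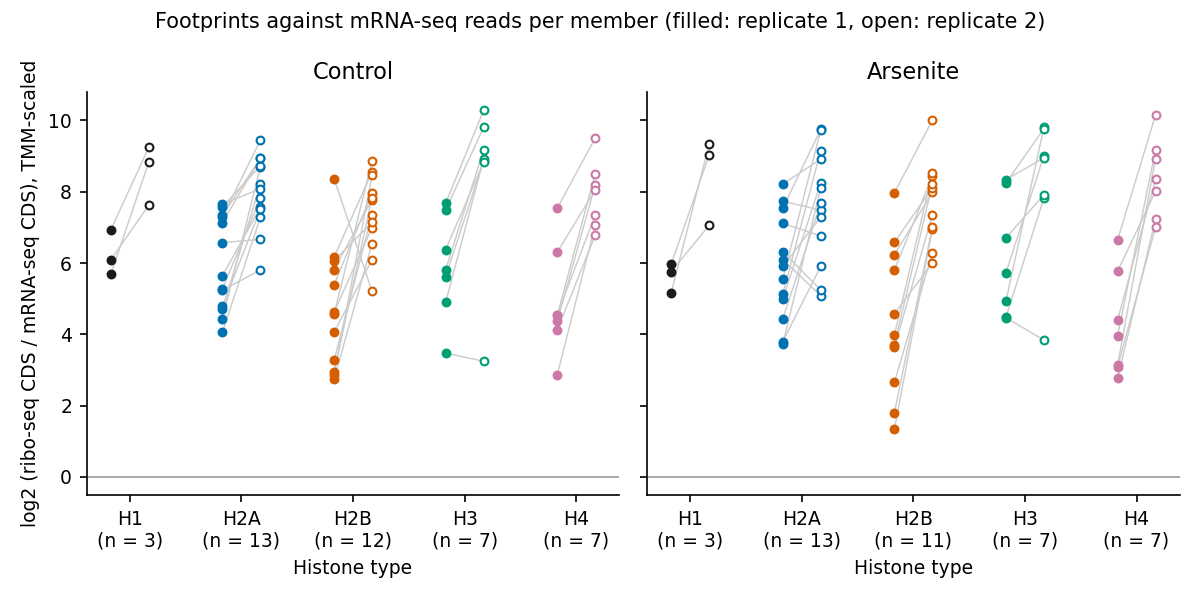
Footprints against mRNA-seq CDS reads of each member tested, as log2 values within a replicate (TMM-scaled, prior count 0.5), by histone type in control (left) and arsenite (right). Filled circles are replicate 1, open circles replicate 2, and a line joins the values of a gene. All points lie above 0, and most lines rise from replicate 1 to replicate 2.

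The linker histone genes had the most footprints. HIST1H1C had 3059 and 26490 CDS footprints in control (replicates 1 and 2), against 87 and 248 mRNA-seq CDS reads. HIST1H1E had 1836 and 31148 footprints against 29 and 94 reads. HIST1H1D had 298 and 3695 against 11 and 14. In each of these genes footprints outnumbered mRNA-seq reads in both replicates, although the mRNA-seq libraries were deeper. The log2 values were 6.89 ± 0.47 (SE), 8.22 ± 0.57 and 7.58 ± 0.60, with adjusted p-values from edgeR of 1.1e-08, 1.2e-08 and 7.8e-08. HIST1H1T, which encodes the testis-specific linker histone, had 42 footprints over the 4 ribo-seq libraries and 0 mRNA-seq CDS reads.

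The linker histones also set the largest gap between the replicates in footprint share. H1 members held 0.275% of CDS footprints in replicate 1 of control and 0.853% in replicate 2. As a part of the members' own footprints, H1 made up 21.4% in replicate 1 and 37.3% in replicate 2 of control, and 32.9% and 32.8% under arsenite. The H1 proportion was thus close between the replicates in arsenite but not in control. The H2B gene HIST1H2BK held 4274 of 24243 member footprints in replicate 1 of control and 2415 of 164628 in replicate 2. It thereby lowered the H1 proportion more in replicate 1. Without HIST1H2BK, H1 had 5194 of 19969 member footprints in replicate 1 of control and 61360 of 162213 in replicate 2. The H1 proportion thus stayed lower in replicate 1.

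H2A pairs with H2B in the nucleosome core. The H2A members with the most footprints were HIST1H2AG, HIST1H2AC and HIST1H2AM. HIST1H2AG had 1494 and 2524 CDS footprints in control against 15 and 10 mRNA-seq CDS reads. HIST1H2AC had 245 and 3297 against 12 and 26, and HIST1H2AM had 1168 and 1972 against 82 and 19. HIST1H2AM thus had more mRNA-seq reads in the shallower replicate. The log2 values of the 13 H2A members tested in control ranged from 5.64 (HIST3H2A) to 8.95 (HIST1H2AB), with a median of 7.17. HIST3H2A, at 160 and 2412 footprints against 8 and 79 reads, had a ratio of shares of 45.9 over both replicates (exact 95% counting interval 37.1 to 57.6).

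Of the H2B members, HIST1H2BK had the most footprints and the most mRNA-seq reads. HIST1H2BK had 4274 and 2415 CDS footprints in control against 25 and 120 mRNA-seq CDS reads. Its excess was therefore higher in replicate 1 (log2 8.36) than in replicate 2 (5.21). Over its whole transcript it had 2601 mRNA-seq reads over the 4 libraries, of which 65.9% lay in the annotated 3′ UTR. HIST2H2BE likewise had 84.6% of its 267 transcript reads in the 3′ UTR and only 5 on the CDS, against 1031 CDS footprints. HIST1H2BJ had 283 and 4235 footprints against 23 and 16 reads, and HIST1H2BD had 221 and 2684 against 10 and 19. HIST1H2BG had 3 and 72 footprints and no mRNA-seq CDS read in control, at least a 38.9-fold excess with 3 reads over both libraries as the floor. The 12 H2B members tested had a median of 6.73.

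H3 and H4 form the tetramer at the centre of the nucleosome. HIST1H3B had 2295 and 14421 CDS footprints in control against 79 and 45 mRNA-seq CDS reads. HIST1H3H had 853 and 9682 against 9 and 19, and HIST1H3A had 664 and 3045 against 26 and 11. HIST1H3B and HIST1H3A had fewer mRNA-seq reads in replicate 2, the deeper library. Of the members tested, the highest and the lowest value over both replicates were those of H3 genes, while within replicate 1 they were those of HIST1H2BK (8.36) and HIST1H2BF (2.74). HIST1H3F had 131 and 708 footprints against 1 and 0 reads, a ratio of shares of 1304 whose counting interval ran from 233 to 51567. HIST1H3E had 7 and 61 against 1 and 11, a ratio of 8.81 (4.73 to 17.9) and a log2 value of 3.39 ± 0.60 (edgeR adjusted p = 0.00061). HIST1H3F and HIST1H3E passed the filter on low counts through their footprints, so their test values are not independent of the filter.

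H4 members had the most mRNA-seq CDS reads over the 4 libraries, 1312 of 4094. HIST1H4C had 1457 and 10390 CDS footprints in control against 122 and 52 mRNA-seq CDS reads. HIST1H4B had 1214 and 6596 against 114 and 41, and HIST1H4H had 497 and 5539 against 41 and 62. H4 made up 44.3% of the members' mRNA-seq CDS reads in replicate 1 of control and 26.3% in replicate 2, against 19.2% and 22.4% of their footprints. The median log2 value of the 7 H4 members tested was 6.21, the lowest of the types, and those of H1 and H3 were 7.58 and 7.48. The ranges of the types overlapped: 6.89 to 8.22 for H1, 5.64 to 8.95 for H2A, 5.53 to 8.74 for H2B, 3.39 to 10.1 for H3 and 5.15 to 9.13 for H4.

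Arsenite left the excess in place. Of 41 members tested in arsenite, 41 were higher in ribo-seq, where 9.25% of 11324 genes were called higher, with a median of 6.96 against -0.037 over all genes. The medians were 5.17 in replicate 1 and 8.10 in replicate 2, and 39 and 41 members lay above the 99th percentile of the other genes. Here too a member could pass the filter through its footprints alone. With a mean of at least 10 mRNA-seq CDS reads required, 20 of 20 members were higher (8.6% of 11786 genes), with a median of 6.49, and they took the first 20 places. The controls' values and these share no library, since each treatment has its own. Both treatments share the replicates, with their adapters and sequencing, and the poly(A) selection of mRNA-seq, so the values are not independent.

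The variant histone genes served as the nearest comparison. In control 2 of the 10 tested were higher in ribo-seq and none lower, with a median of 0.34. Over all 11401 genes tested, 10.6% were called higher and 1824 genes lower. H2AFX, whose gene can make both stem-loop and polyadenylated mRNA, had 51 and 1290 CDS footprints against 38 and 466 mRNA-seq CDS reads, a log2 value of 1.96 ± 0.35 (edgeR adjusted p = 0.00072). H3F3B, which encodes the replacement histone H3.3, stood at 1.06 ± 0.34 (adjusted p = 0.029). H2AFZ, with the most footprints of this list, had 579 and 5540 against 1869 and 7149, and its value of -0.10 ± 0.34 was within its error. The highest variant gene, H2AFX, was below the lowest member tested, HIST1H3E (log2 3.39). HIST1H3E passed the filter on low counts through its footprints, so its position is not independent of the filter. Where mRNA-seq CDS reads averaged 10 or more, the lowest member was HIST1H4A (5.17).

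Arsenite reduces translation initiation, and the next question is whether ribosomes on histone mRNAs changed relative to those on other mRNAs. After TMM scaling a change is measured against the bulk of genes, so a global loss of footprints does not enter. Of 43 members tested, 3 fell and none rose, where 1.3% of 10291 genes were called lower and 1.38% higher. The median log2 change over members was -0.26 (0.835-fold) against -0.003 over all genes, with 32 of 43 members below 0.

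Levels are given as CPM, footprints per 1000000 after TMM scaling. HIST1H2AI had 177 and 105 CPM in control (replicates 1 and 2) and 114 and 52.7 in arsenite, lower in both replicates. Its log2 change was -0.83 ± 0.20 (edgeR adjusted p = 0.029). HIST1H2BC, an H2B gene, had 283 and 265 in control and 89.5 and 203 in arsenite, a change of -0.94 ± 0.23 (adjusted p = 0.03). HIST1H2AG had 863 and 328 in control and 296 and 283 in arsenite, a change of -0.86 ± 0.23 (adjusted p = 0.0498). In HIST1H2BC and HIST1H2AG most of the fall was in replicate 1, with -1.66 and -1.54 against -0.38 and -0.22 in replicate 2. When transcripts were chosen by control mRNA-seq reads instead of footprints, HIST1H2AG was not called. All 3 calls depended on the replicate block. Without it edgeR called 0 members and 0 of all genes, with 0 members and 149 genes at an unadjusted p under 0.05, and DESeq2 with the block called 0 of the 32 members to which it gave an adjusted p, with 11 of all 43 under 0.05 unadjusted.

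The HIST2 genes HIST2H2BE and HIST2H2BF stood on the other side. HIST2H2BE had 20.8 and 62.3 CPM in control and 21.3 and 152 in arsenite, so that its level differed in replicate 2 but hardly in replicate 1 (log2 0.95 ± 0.26, adjusted p = 0.051). HIST2H2BF had 24.3 and 99.9 in control and 28.8 and 192 in arsenite (0.74 ± 0.23, adjusted p = 0.084). Neither passed the threshold, but both were called higher with upper-quartile scaling and at a mean of 50 or more counts. HIST2H2BE was also called without a filter on low counts and with reads of the whole transcript. The first 3 of these settings also called more of all genes (477 of 10291, 581 of 7382 and 541 of 13635, against 276 of 10291). Among the types, 11 of 13 H2A members, 6 of 7 H3 members, 6 of 7 H4 members and 3 of 4 H1 members were below 0, while the 12 H2B members were split 6 to 6. The medians were -0.46 for H2A, -0.52 for H3, -0.18 for H4, -0.28 for H1 and 0.05 for H2B. Some of these differed in sign between replicates. Of the 7 H4 members, 6 were below 0 in replicate 1 (median -0.49) and 2 in replicate 2 (median 0.04), and the H2B median was -0.24 and 0.29.

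**Figure D4:**
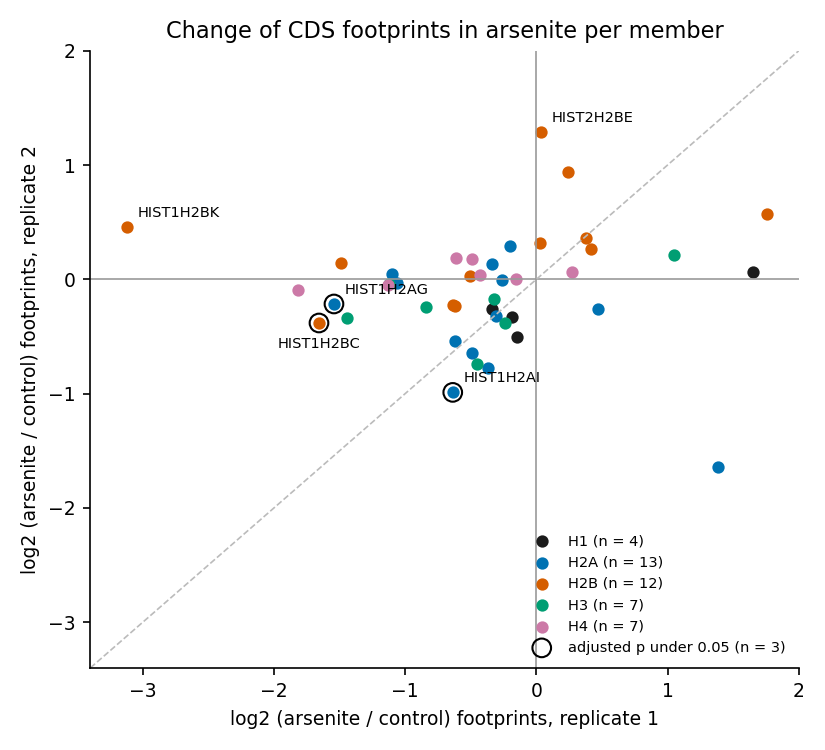
Log2 change of CDS footprints in arsenite against control within replicate 1 (horizontal) and replicate 2 (vertical) for 43 members, coloured by type, with rings around the 3 whose change passed an adjusted p of 0.05. The dashed line marks equal changes. Values spread from -3.12 to 1.76 in replicate 1 and from -1.65 to 1.29 in replicate 2.

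The replicates gave different sizes of change. The share of CDS footprints on members in arsenite was 0.557 times that in control in replicate 1 (0.714% against 1.28%) and 0.946 times in replicate 2 (2.16% against 2.29%). In replicate 1, 32 of 43 members were below 0 with a median of -0.37, and in replicate 2, 24 of 43 with a median of -0.05. Of the 43, 22 were below 0 in both, 9 above 0 in both and 12 changed sign. For comparison, the central 90% of all genes lay between -1.27 and 1.11 in replicate 1 and between -0.77 and 0.73 in replicate 2.

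HIST1H2BK weighed most on the sum in replicate 1. It had 2470 CPM in control and 284 in arsenite in replicate 1, but 314 and 430 in replicate 2. Its changes of -3.12 and 0.45 had opposite signs, and the fitted change of -1.28 ± 0.48 did not pass the test (adjusted p = 0.16). The high value was that of the control library of replicate 1. The share of footprints on H2B members changed 0.254-fold in replicate 1 and 1.18-fold in replicate 2, and without HIST1H2BK 0.713-fold and 1.14-fold. For all members without HIST1H2BK it changed 0.652-fold and 0.939-fold.

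The mRNA-seq level of members over the whole transcript could be tested for 25 of 46. HIST1H4B fell and no member rose, where 1.99% of 12573 genes were called lower and 3.76% higher. It had 29.4 and 2.15 CPM of mRNA-seq reads in control and 20.7 and 1.30 in arsenite, which is 114 and 43 reads against 80 and 29. It was lower in each replicate, and its log2 change was -0.57 ± 0.18 (edgeR adjusted p = 0.04). Without the replicate block it was not called, and DESeq2 gave no member an adjusted p here. The median over members was -0.21, against -0.008 over all genes, with 19 of 25 below 0.

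The change in translation efficiency (TE), the change in footprints less that in mRNA-seq level, was tested as an interaction in 1 model of all 8 libraries. For members the mRNA-seq level is that of poly(A)-selected RNA, so their TE change is relative to that RNA only. Of 25 members tested, edgeR called 0, where 2.15% of 10273 genes were called. At an unadjusted p under 0.05 there were 5 members and 2191 genes, and DESeq2 also called 0 members. The median was 0.03, against -0.014 over all genes. The nearest to the threshold were HIST2H2BE (1.30 ± 0.31, adjusted p = 0.056) and HIST2H2BF (1.14 ± 0.33, adjusted p = 0.093), both above 0 in each replicate. Of the 267 mRNA-seq reads of HIST2H2BE, 226 lay in the 3′ UTR and 5 on the CDS. With mRNA-seq CDS reads instead, 20 members could be tested and 0 were called, with 53 of 10260 genes. HIST1H1E stood at -0.57 ± 0.22 (adjusted p = 0.18), HIST1H3J at -0.96 ± 0.37 (adjusted p = 0.19) and HIST1H1C at -0.37 ± 0.16 (adjusted p = 0.23), all below 0 in each replicate.

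Genes that act on histones and their mRNAs were set beside the members. Of 21 genes of histone mRNA processing and decay, 1 fell in footprints and none rose. That gene was ERI1 (log2 -0.94 ± 0.25, edgeR adjusted p = 0.049), a nuclease that trims the stem-loop end. SLBP, which binds the stem-loop, stood at -0.42 ± 0.19 (adjusted p = 0.26). In mRNA-seq level 3 of the 21 rose and 1 fell, and in TE only CPSF2, a subunit of the cleavage complex, was called (-0.80 ± 0.16, adjusted p = 0.04). Of 25 histone chaperones, SET fell in footprints (-0.71 ± 0.19, adjusted p = 0.043), and CHAF1B, a subunit of chromatin assembly factor 1, was called in TE (-0.83 ± 0.16, adjusted p = 0.034). Of 37 genes of DNA synthesis in S phase, none was called in footprints or in TE, with 6 and 5 at an unadjusted p under 0.05. In mRNA-seq level 5 of these 37 rose and 1 fell, and 2 of the 25 chaperones rose. Over all genes tested, 1.38% were called higher and 1.3% lower in footprints. In mRNA-seq level the shares were 3.76% and 1.99%, and in TE 2.15% were called in either direction. The medians of footprint changes over the 3 lists were 0.07, -0.03 and -0.03.

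These lists also give the level of other S-phase genes in footprints against mRNA-seq. In control 16 of 37 DNA synthesis genes were higher and 1, E2F1, was lower, with a median log2 value of 0.85. Over all 11401 genes tested, 10.6% were called higher and 1824 genes were called lower. The helicase subunit MCM2 was at 1.54 ± 0.32 and MCM4 at 0.93 ± 0.31 (edgeR adjusted p = 0.002 and 0.034). Of the chaperones 5 were higher and 4 lower, with a median of 0.58, and of the processing genes 4 were higher and 4 lower, with a median of 0.10. The highest value in these 3 lists was 1.79 (PRIM2), below every member tested. Some of these members passed the filter on low counts through their footprints, so their position is not independent of the filter.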

How the data were processed

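Per the labels and methods, the authors trimmed reads with Cutadapt, removed those of the spike-in and rRNA, and aligned the rest to RefSeq transcripts with Bowtie 1.0.0. Footprints of 29 to 35 nt were placed at the A-site, and replicate 2 sums several runs. The deposited values are raw counts of 47087 transcripts. For the 35851 coding transcripts, 5′ leader, CDS and 3′ UTR have counts of their own.

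Here each gene was represented by the transcript with the most CDS footprints in control. Counts were tested with edgeR 4.0.16 (R 4.3.3) with TMM and the replicate as a block, keeping genes that averaged 10 or more counts (in each assay for TE). The methods give each replicate its own adapter and sequencing, which pairs the libraries. Same-replicate deviations correlated at 0.690 in ribo-seq (10291 genes) and 0.709 in mRNA-seq (12573 genes). The methods call the 2 replicates independent and biological. Errors are SE of the fit, and intervals are exact 95% Clopper-Pearson and cover counting error only.

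The genes named were, per type, the 3 members with the most footprints, each member past a threshold, the 3 highest and 3 lowest in footprints per mRNA-seq read in control, the 3 list genes with the most footprints and list genes past the TE threshold. Other genes were named after their values were seen. The members and lists were chosen with earlier results of these data known. Alternatives were DESeq2 1.42.0, upper-quartile scaling, other filters, no replicate block, another transcript, other read regions, a prior count of 2, at least 100 footprints, and leaving out a replicate. On simulated counts the test recovered 171 of 200 genes changed by 2 on the log2 scale in footprints (10291 genes), 197 in mRNA-seq (12573), 188 in TE (10273), 182 for footprints against mRNA-seq in control (11401) and 158 in arsenite (11324). Python 3.11.15, scipy 1.17.1 and matplotlib 3.10.9 were used.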

Additional observations from a re-analysis of the deposited data

Results flagged for a closer look

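Footprints in the 3′ UTR of members took a higher share in arsenite than in control, in a region that the comparisons above did not use. The share of the members' footprints there was 0.0699% in control (exact 95% counting interval 0.0407 to 0.112) and 1.11% in arsenite (0.886 to 1.38) in replicate 1. In replicate 2 it was 0.0423% (0.0330 to 0.0534) and 0.669% (0.608 to 0.735). This is 15.9 and 15.8 times, where the share over all genes changed 1.97 times (0.102% to 0.200%) and 3.74 times (0.200% to 0.748%). The counts behind it were 17 and 82 footprints in replicate 1 and 70 and 438 in replicate 2.

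The 3′ UTR footprints lay mostly on core histone genes. H4 members had 1 and 16 in control (replicates 1 and 2) and 19 and 189 in arsenite, and H2B members had 6 and 19 and then 24 and 123. H1 members, with the most CDS footprints, had 0 and 6 in control and 0 and 36 in arsenite. HIST1H4E had 0 and 4 in control and 1 and 59 in arsenite, HIST1H4H 0 and 3 and then 0 and 57, and HIST1H4D 0 and 1 and then 0 and 44. In these 3 genes nearly all of them were in replicate 2, while HIST1H2BK (3 and 8, then 17 and 15) and HIST1H4C (1 and 4, then 16 and 14) had them in both. Of the 46 members, 35 had more 3′ UTR footprints in arsenite and 3 had fewer. Over all genes these footprints also rose, from 1933 to 2049 in replicate 1 and from 14556 to 22762 in replicate 2. The share of all genes with more was not computed, so the count is not a trait particular to members.

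In the 5′ leader the share was 1.01% in arsenite against 0.482% in control in replicate 2, while the intervals of replicate 1 overlapped (0.299% and 0.230%). Over all genes it changed from 0.777% to 1.48% in replicate 2 and from 0.380% to 0.476% in replicate 1. HIST1H2BK and HIST1H1E held 591 and 579 of the members' leader footprints over the 4 libraries. Without HIST1H2BK replicate 1 had the lower leader share under arsenite (0.0849% against 0.135%), and replicate 2 the higher (0.655% against 0.306%). The values of replicate 1 rest on only 6 leader footprints in arsenite and 27 in control, those of replicate 2 on 418 and 498. The causes were not tested.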

How the results depend on the processing

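The excess of footprints over mRNA-seq kept its direction in every setting run. All members tested were called higher, except 1 of 42 (HIST1H2BG) with DESeq2 and 2 of 46 (HIST1H2BM and HIST1H4L) without a filter, both in control. DESeq2, the fit without a filter and the other transcript were run for control only, so arsenite has no result in these settings. Where mRNA-seq CDS reads averaged 10 or more, a setting chosen after seeing the data, 21 and 20 members were tested and called in control and arsenite. Without replicate 1 and without replicate 2 its median was 8.07 and 5.51 in control and 8.10 and 5.17 in arsenite, and the shares of CDS reads were those of the single libraries (1.28% to 2.29% and 0.714% to 2.16% in ribo-seq, 0.00989% to 0.0342% and 0.00912% to 0.0308% in mRNA-seq).

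Changes with arsenite were less firm. Of members, 7 were called in footprints with upper-quartile scaling (5 lower, 2 higher), where 477 of 10291 genes were called. Without a filter on low counts 9 members were called (8 lower), with 541 of 13635 genes. At a mean of 50 or more counts 9 were called (7 lower), with 581 of 7382 genes. The main setting called 3 members and 276 of 10291 genes. DESeq2 called 0 of 32 members, and the fit without the replicate block called 0 members. In mRNA-seq 0 were called without the block, with 0 at an unadjusted p under 0.05, and DESeq2 gave none of the 25 members an adjusted p. All genes called fell from 276 in footprints, 723 in mRNA-seq and 221 in TE to 0 without the block (149, 28 and 147 at an unadjusted p under 0.05), and to 54, 87 and 104 with DESeq2. The median mRNA-seq change was -0.22 with upper-quartile scaling, -0.26 with DESeq2, -0.13 without a filter, -0.13 at a mean of 50 or more counts, -0.19 without the block, -0.21 with the other transcript, -0.18 with CDS reads, and -0.24 with either replicate left out. The median footprint change was -0.05 without replicate 1 and -0.37 without replicate 2, and that of TE 0.24 and -0.23. The sign of the TE median (0.03) thus depended on the replicate. It also turned at a mean of 50 or more counts (-0.25), with CDS reads (-0.13), without the block (-0.06) and with the filter over all 8 libraries (-0.20). With 2 replicates and a median of 30 mRNA-seq CDS reads per member, mRNA-seq and TE changes of single members have wide errors.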
